A study of Caenorhabditis elegans with 12 samples.

Results

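The insulin-like peptide genes of C. elegans were followed across 12 RNA sequencing libraries of whole L4 larvae. Members were all genes with the WBcel235 name ins and a number, together with daf-28. These were 39 of the 46904 gene identifiers in the count tables. The 38 ins genes carried the numbers 1 to 39 without 38, and all 39 members were annotated as protein-coding, out of 19901 protein-coding genes in the tables. The 4 groups had 3 libraries each. They were N2 Bristol wild type (WT) animals and miR-85(n4117) animals kept for 47 hrs at 20°C, and animals of both strains grown for 44 hrs at 20°C and then heat shocked (HS) for 3 hrs at 35°C. The n4117 allele removes the microRNA gene mir-85 and, according to the study, also partly disrupts the protein-coding gene F49E12.8. The strain, PQ629, is a single mutant line, so effects of both genes and of its other sequence differences from N2 cannot be told apart.

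Insulin-like peptides are small secreted proteins with the paired chains of human insulin. In the worm nearly all of them are thought to act through a single receptor, DAF-2. An agonist activates DAF-2, and a cascade of the kinases AGE-1, PDK-1 and AKT then keeps the transcription factor DAF-16 out of the nucleus. An antagonist leaves DAF-16 free to enter it, which favours stress resistance, long life and entry into the dauer larva, an arrested stage. Most members are made in sensory neurons and other neurons, and some also in intestine, hypodermis or muscle. The daf-28, ins-4, ins-6 and ins-7 genes are known for agonist peptides, and ins-1, ins-17 and ins-18 for antagonist peptides.

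Counts per library totalled 23871531 to 38586076, of which 9505142 to 29652439 fell on protein-coding genes. Ribosomal RNA genes took 65.47% of the counts in WT replicate 3 at 20°C, the shallowest library for coding genes, and 13.65% to 32.94% in the other 11. Counts of F49E12.8 were 78 to 220 per library in WT and 0 to 11 in the mutant. The mir-85 gene itself had 0 to 9 counts in WT libraries and 0 in all 6 mutant libraries, and such libraries do not capture mature microRNAs. Lane 8 held WT replicates 2 and 3 at both temperatures, while the 8 remaining libraries were run in lane 3. Both 35°C libraries numbered 2 stood apart, with 350 and 290 CPM (read counts scaled to the library size by TMM) summed over 5 hypodermal markers against 1195 to 1978 in the other 4 HS libraries. Their summed levels of 4 L4 stage markers were 129 and 102 CPM against 341 to 731. Their summed levels of 4 adult markers were 8679 and 5536 CPM against 348 to 3446. Germline, sperm and muscle markers were present in all libraries.

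Many members lie side by side in the genome (WBcel235, Ensembl annotation). In 7 groups, 24 of the 39 members neighbour each other with at most 1 other coding gene between them. The longest group lies on chromosome I from 14012369 to 14037777 and holds ins-28, ins-29, ins-25, ins-27, ins-24, ins-30 and ins-26. A group on chromosome II from 5988524 to 6011321 holds ins-2, ins-3, ins-4, ins-5, ins-6 and ins-20. Chromosome II carries 15 members and chromosome I carries 10. The encoded proteins are short, from 67 to 218 amino acids with a median of 103. Exons of ins-37 and ins-13 overlap another gene on the same strand (F08G2.9 by 171 bp and acdh-2 by 87 bp), so their counts are uncertain. Exons of 4 members (ins-10, ins-34, ins-36 and ins-37) overlap a gene on the opposite strand, which the stranded counting keeps apart.

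Most members were rare transcripts, and 26 of 39 had enough counts for a test in the fit of all 12 libraries. All members together received 770 to 2164 counts per library. A single count corresponded to 0.0212 to 0.0795 CPM, depending on the library. In the fits of the 6 libraries at 20°C and the 6 at 35°C, 23 members were tested each time, and 20 members were tested in all 3 fits. Only 13 members reached 10 counts in every library. All 39 members had at least 1 count, and 25 had a count in every library. The 13 members that were not tested were ins-2, ins-8, ins-10, ins-13, ins-15, ins-16, ins-19, ins-21, ins-23, ins-25, ins-32, ins-34 and ins-36, with 8 to 80 counts in all and at most 13 in a single library. The least detected was ins-8, with 0 counts in all 6 libraries at 20°C and 0 to 3 at 35°C. The filter also matters for those that passed, since ins-20 and ins-39 had 0 or 1 counts in each library at 20°C and were tested only because of their counts at 35°C. The ins-5 gene was also tested only through its counts at 35°C, while ins-9, ins-14 and ins-22 had enough counts at 20°C and not at 35°C. These 6 members entered the HS test only through the temperature at which they were higher, and the other 20 had enough counts at both. In whole animals, fewer cells of a type and less RNA per cell cannot be told apart for any of these genes.

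The summed level of the family differed by less than its spread between temperatures within a strain and between strains within a temperature. Its composition differed between the temperatures. The sum over 39 members was 50.4 ± 9.35 CPM in WT at 20°C and 57.4 ± 6.98 CPM in WT after HS (SD, n = 3). In miR-85(n4117) it was 51.6 ± 5.05 CPM at 20°C and 55.5 ± 8.69 CPM after HS. Between temperatures within a strain, and between strains within a temperature, the means differed by less than the SD of either group. In WT at 20°C, ins-4 gave 1.85%, 2.12% and 3.64% of that sum, and after HS it gave 14.4%, 35.7% and 22.3%. In the mutant its share was 2.40%, 3.30% and 2.67% at 20°C and 14.5%, 21.2% and 20.0% after HS. The 3 members with the largest shares were ins-27, ins-37 and ins-17 in both strains at 20°C, with a mean of 39.5% in WT and 37.7% in the mutant. At 35°C they were ins-4, ins-27 and ins-33 in both strains, with 50.5% in WT and 45.4% in the mutant.

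**Figure D1:**
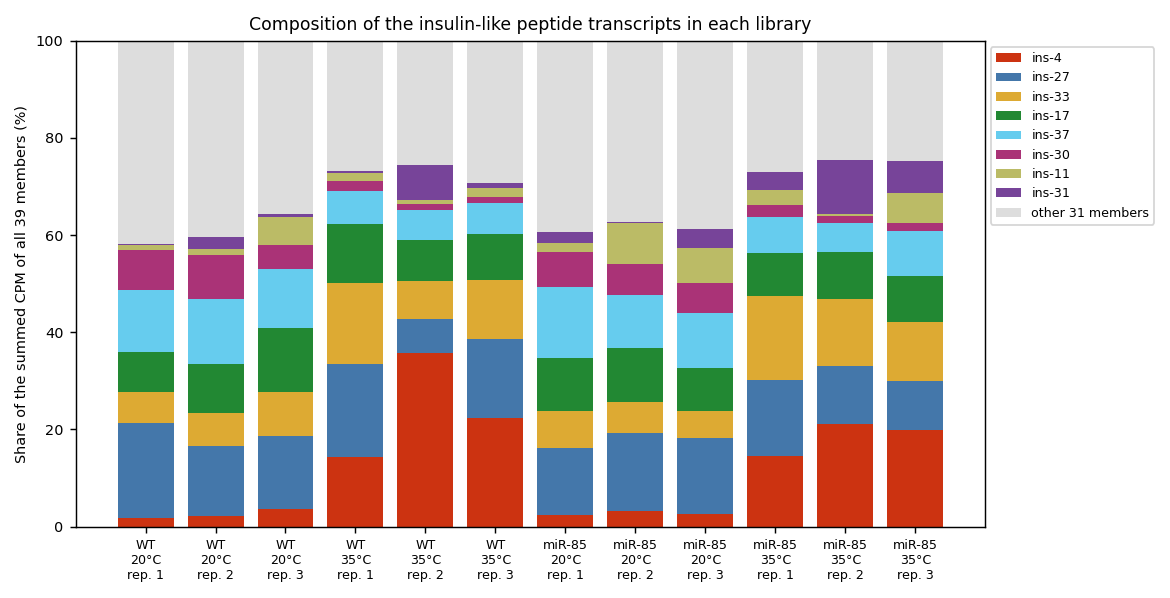
Stacked bars give the share (%) of each member in the summed CPM of all 39 members, one bar per library, with the 8 members of largest share in colour and the other 31 in grey. The ins-4 segment is 1.85% to 3.64% of the bar in the 6 libraries at 20°C and 14.4% to 35.7% in the 6 at 35°C.

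Per length, ins-27 had the highest level of the family at 20°C. It stood at 26.3 ± 4.37 CPM per kb of exon in WT and 25.3 ± 4.28 in the mutant (SD, n = 3), and its libraries did not overlap with those of ins-17, the next in order. At 20°C ins-17 stood at 9.69 ± 4.04 CPM per kb in WT and 9.44 ± 1.13 in the mutant. The members that followed, ins-33, ins-29, ins-37 and ins-30 in WT, each overlapped with their neighbour in the order. After HS ins-4 came next to ins-27, and both overlapped: in WT they stood at 24.4 ± 13.02 and 25.4 ± 9.86 CPM per kb, and in the mutant at 17.5 ± 4.29 and 22.2 ± 4.82. The third place was held by ins-33 in both strains, with 13.1 ± 3.28 CPM per kb in WT and 15.1 ± 2.80 in the mutant. The 6 members with the highest mean level per length over all libraries were ins-27, ins-4, ins-33, ins-17, ins-37 and ins-11.

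Upon HS, ins-4, ins-20 and ins-39 rose and ins-9, ins-22, ins-26 and ins-30 fell in WT, while the summed level of the family stayed within its spread. The comparison asks which transcripts differ after 3 hrs at 35°C. A gene was called when its mean normalized count was over 10, its log2 fold change at least 1 in size and its adjusted p under 0.05 (edgeR quasi-likelihood test, Benjamini-Hochberg over all genes tested). Of 26 members tested in WT, 3 were called higher (11.5%) and 4 lower (15.4%), where 5.87% and 5.25% of all 15287 coding genes tested were called. In miR-85(n4117), 3 were called higher (11.5%, ins-4, ins-33 and ins-39) and 6 lower (23.1%, ins-1, ins-6, ins-7, ins-22, ins-26 and ins-30), against 4.23% and 3.2% of coding genes. These shares, like the medians and counts that follow, include members that entered the test only through the temperature with the higher level, namely ins-20, ins-39, ins-9 and ins-22 among the WT calls and ins-39 and ins-22 among the mutant calls. Of the 20 members with enough counts at both temperatures, 1 was called higher and 2 lower in WT, and 2 higher and 5 lower in the mutant. No share of coding genes with enough counts at both temperatures stands beside these counts. The shares of coding genes above include those tested through 1 temperature only. The median log2 fold change of the tested members was -0.20 in WT and -0.57 in the mutant, where that of all coding genes was 0.01 and 0.03. Where a group had 0 counts (ins-20 in WT and ins-39 in the mutant), the lower bound also lay above the median. The medians therefore do not depend on the size of these rises. The levels of the HS and 20°C libraries did not overlap for 4 members in WT that were higher and 8 that were lower (19.8% and 19.5% of coding genes), and for 5 and 11 members in the mutant (18.5% and 18.7%).

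The calls overlapped between the strains. The 5 members called in both (ins-4, ins-39, ins-22, ins-26 and ins-30) were 71.4% of the WT calls and 55.6% of the mutant calls. Of these, ins-39 and ins-22 entered the test only through the temperature with the higher level. All 11 members called in either strain had the same sign in the other, as did 22 of the 26 tested members. The matching shares over all coding genes are not given here, so the overlap is not shown to be particular to the family. The other 15 tested members were not called in either strain. Among these, ins-14 had an adjusted p of 0.0298 in WT and 0.0189 in the mutant (edgeR) with log2 fold changes of -1.82 and -2.25, but its mean normalized counts of 7.04 and 5.54 were under the limit of 10.

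**Figure D2:**
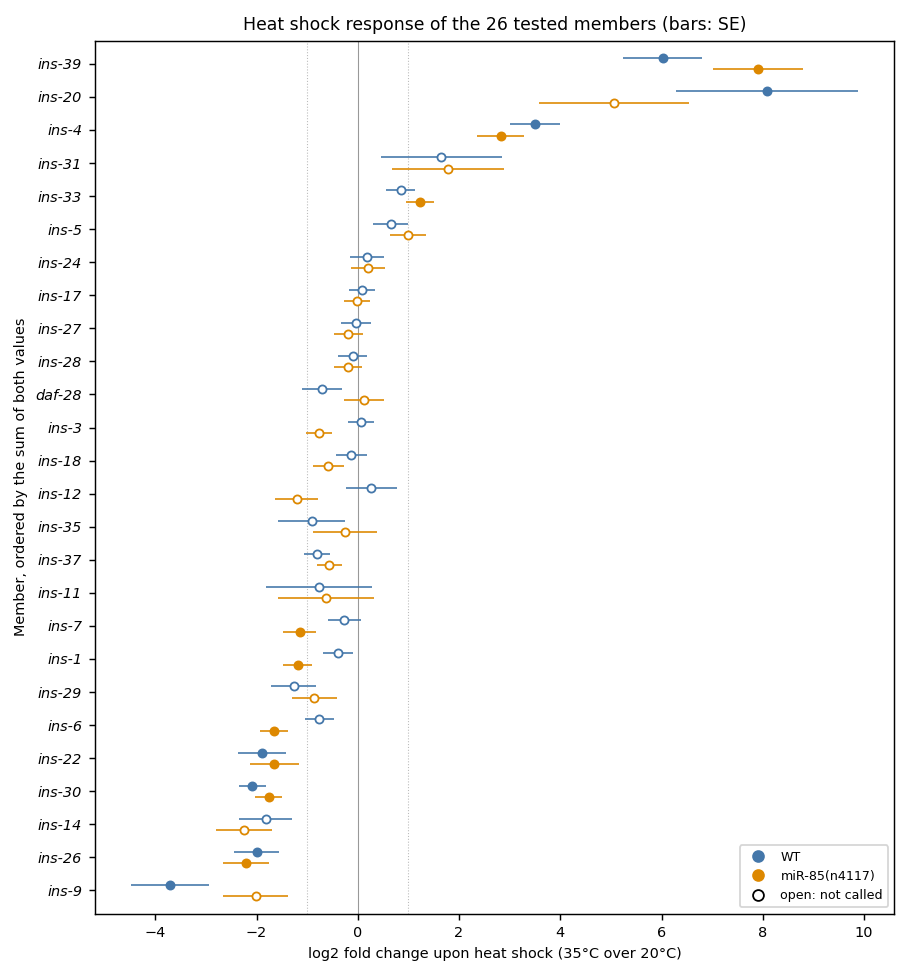
Points give the log2 fold change upon HS of the 26 tested members in WT and in miR-85(n4117), with SE bars, filled where the member was called. The values of ins-39 and ins-20 rest on 0 or 1 counts in each library at 20°C and depend on the prior count of the fit, and ins-4 lies next below them at 3.50 in WT and 2.82 in the mutant.

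Among the agonists named above, ins-4 had the clearest rise. It encodes a peptide made in sensory neurons that promotes reproductive growth over dauer entry, and lies on chromosome II from 5996366 to 5997008. Its levels in WT were 0.819, 0.974 and 2.23 CPM at 20°C and 7.10, 22.3 and 13.4 CPM at 35°C. In the mutant they were 1.10, 1.79 and 1.46 CPM at 20°C and 7.89, 10.01 and 12.9 CPM at 35°C. Every HS library stood above every library at 20°C. The log2 fold change was 3.50 (SE 0.487, adjusted p 0.000778, edgeR) in WT and 2.82 (SE 0.461, adjusted p 0.00219) in the mutant. The call held without any single library in either strain, with log2 fold changes from 3.03 to 3.99 in WT and from 2.62 to 3.00 in the mutant.

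The next genes of that group behaved differently. The ins-6 gene lies on the same strand, with ins-5 between it and ins-4, and encodes another growth-promoting agonist. In WT it stood at 1.34, 0.918 and 1.03 CPM at 20°C and at 0.733, 0.687 and 0.533 CPM at 35°C. In the mutant it stood at 1.59, 1.11 and 1.71 CPM at 20°C and at 0.415, 0.497 and 0.478 CPM at 35°C. The HS libraries lay below the libraries at 20°C in both strains, and the fall was called in the mutant (log2 fold change -1.66, SE 0.279, adjusted p 0.0025, edgeR) and not in WT (-0.76, SE 0.278, adjusted p 0.0732). Between them, ins-5 had log2 fold changes of 0.65 (adjusted p 0.243) and 1.00 (adjusted p 0.0843), and on the other side of ins-4, ins-3 had 0.06 (adjusted p 0.879) and -0.77 (adjusted p 0.0712).

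The other agonists named above, daf-28 and ins-7, moved less. The daf-28 gene, whose peptide is made in the ASI and ASJ sensory neurons and holds back dauer entry, had 0.786, 1.09 and 0.477 CPM in WT at 20°C and 0.501, 0.444 and 0.533 CPM at 35°C. In the mutant it had 0.571, 0.329 and 0.596 CPM at 20°C and 0.642, 0.675 and 0.318 CPM at 35°C. Both pairs of groups overlapped, and neither log2 fold change passed the test (-0.71, SE 0.392, adjusted p 0.211 in WT and 0.12, SE 0.388, adjusted p 0.868 in the mutant, edgeR). The ins-7 gene encodes an agonist made in neurons and intestine, and DAF-16 is known to repress it. It had 0.950, 0.974 and 0.477 CPM in WT at 20°C and 0.810, 0.687 and 0.569 CPM at 35°C, with overlapping groups and a log2 fold change of -0.27 that did not pass the test (adjusted p 0.589, SE 0.328). In the mutant its HS libraries (0.415, 0.426 and 0.637 CPM) lay below those at 20°C (0.889, 1.11 and 1.30 CPM), a called fall of -1.15 (SE 0.327, adjusted p 0.037). That call held in only 2 of 6 fits that left out a mutant library (log2 fold changes from -1.38 to -1.02), being lost without replicate 2 or 3 at 20°C or replicate 1 or 2 at 35°C.

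Of the antagonists named above (ins-1, ins-17 and ins-18), only ins-1 was called, and only in the mutant. Its peptide is made in many neurons and in intestine and is known for roles in learned behaviour. In WT it stood at 0.983, 1.06 and 1.03 CPM at 20°C and at 0.656, 0.646 and 1.03 CPM at 35°C, where replicate 3 at 35°C lay within the range of the libraries at 20°C. In the mutant it stood at 1.63, 1.44 and 1.597 CPM at 20°C and at 0.529, 0.568 and 0.955 CPM at 35°C, with all HS libraries lower. The log2 fold change was -0.39 (SE 0.296, adjusted p 0.364, edgeR) in WT and -1.18 (SE 0.289, adjusted p 0.0189) in the mutant. The mutant call held in 3 of 6 fits that left out a library (-1.50 to -1.03) and was lost without replicate 3 at 20°C or replicate 1 or 2 at 35°C.

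The levels of ins-17 and ins-18, both known for promoting dauer entry, did not pass the test. For ins-17 the values were 3.70, 4.54 and 7.95 CPM in WT at 20°C and 5.98, 5.29 and 5.72 CPM at 35°C. In the mutant they were 4.95, 5.98 and 4.85 CPM at 20°C and 4.87, 4.65 and 6.17 CPM at 35°C. The groups overlapped in both strains, and the log2 fold changes were 0.09 (SE 0.258, adjusted p 0.827) and -0.01 (SE 0.255, adjusted p 0.989). For ins-18 the values were 1.21, 1.61 and 2.15 CPM in WT at 20°C and 1.04, 1.66 and 1.78 CPM at 35°C, and 1.503, 2.33 and 1.68 CPM against 1.36, 0.959 and 1.35 CPM in the mutant. Its groups overlapped in WT and did not in the mutant, with log2 fold changes of -0.13 (SE 0.309, adjusted p 0.794) and -0.58 (SE 0.304, adjusted p 0.224).

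The genes ins-39 and ins-20 were almost without counts at 20°C and were in the test only through their counts at 35°C. The ins-39 gene, alone on its part of chromosome X from 1343758 to 1344421, had 0, 1 and 0 counts in WT at 20°C and 13, 38 and 34 at 35°C. In the mutant it had 0 counts in all 3 libraries at 20°C and 27, 23 and 30 at 35°C. The lowest HS library had 13 counts and the highest library at 20°C had 1. In WT the ratio was 85.2 with a 95% exact interval from 14.9 to 3406 that covers counting error only (adjusted p 0.00104, edgeR), and in the mutant the level was at least 12.9-fold higher, set against 3 counts per library (adjusted p 0.000452). The call held without any single library in both strains, but ins-39 was not tested with at least 10 counts in every library.

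The ins-20 gene lies 9834 bp after ins-6 on chromosome II, with 1 other gene between them. It had 0 counts in each WT library at 20°C and 6, 71 and 10 at 35°C, so that WT replicate 2 held 71 of the 87 counts. In the mutant it had 0, 0 and 1 counts at 20°C and 13, 13 and 8 at 35°C. The HS libraries were higher in both strains. In WT the level was at least 8.22-fold higher (adjusted p 0.0141, edgeR). This rests on WT replicate 2 at 35°C, without which the bound was 2.1-fold and the gene, with a log2 fold change of 6.17 and an adjusted p of 0.00955, was no longer called because its mean normalized count fell to 3.52. In the mutant the ratio was 50.1 (95% exact interval 8.41 to 2038, counting error only), and with an adjusted p of 0.0513 and a mean normalized count of 6.40 it was not called.

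The third member called higher in the mutant was ins-33. It stood at 2.85, 3.17 and 5.56 CPM in WT at 20°C and at 8.25, 4.93 and 7.29 CPM at 35°C, where replicate 3 at 20°C overlapped with replicate 2 at 35°C. In the mutant it stood at 3.51, 3.50 and 3.03 CPM at 20°C and at 9.40, 6.50 and 7.72 CPM at 35°C, without overlap. The log2 fold change was 0.85 (SE 0.279, adjusted p 0.0512, edgeR) in WT and 1.23 (SE 0.277, adjusted p 0.0123) in the mutant. WT thus missed both the size and the p needed for a call. With DESeq2 its adjusted p was 0.0239 at a log2 fold change of 0.85. WT passed both limits without replicate 3 at 20°C (1.18, adjusted p 0.0116, edgeR) or replicate 2 at 35°C (1.03, adjusted p 0.0326). It passed neither when any other WT library was left out (0.66 to 0.79, adjusted p 0.115 to 0.165). The mutant call was lost without replicate 3 at 20°C (adjusted p 0.0564), and the 6 fits that left out a library gave 1.08 to 1.35.

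**Figure D3:**
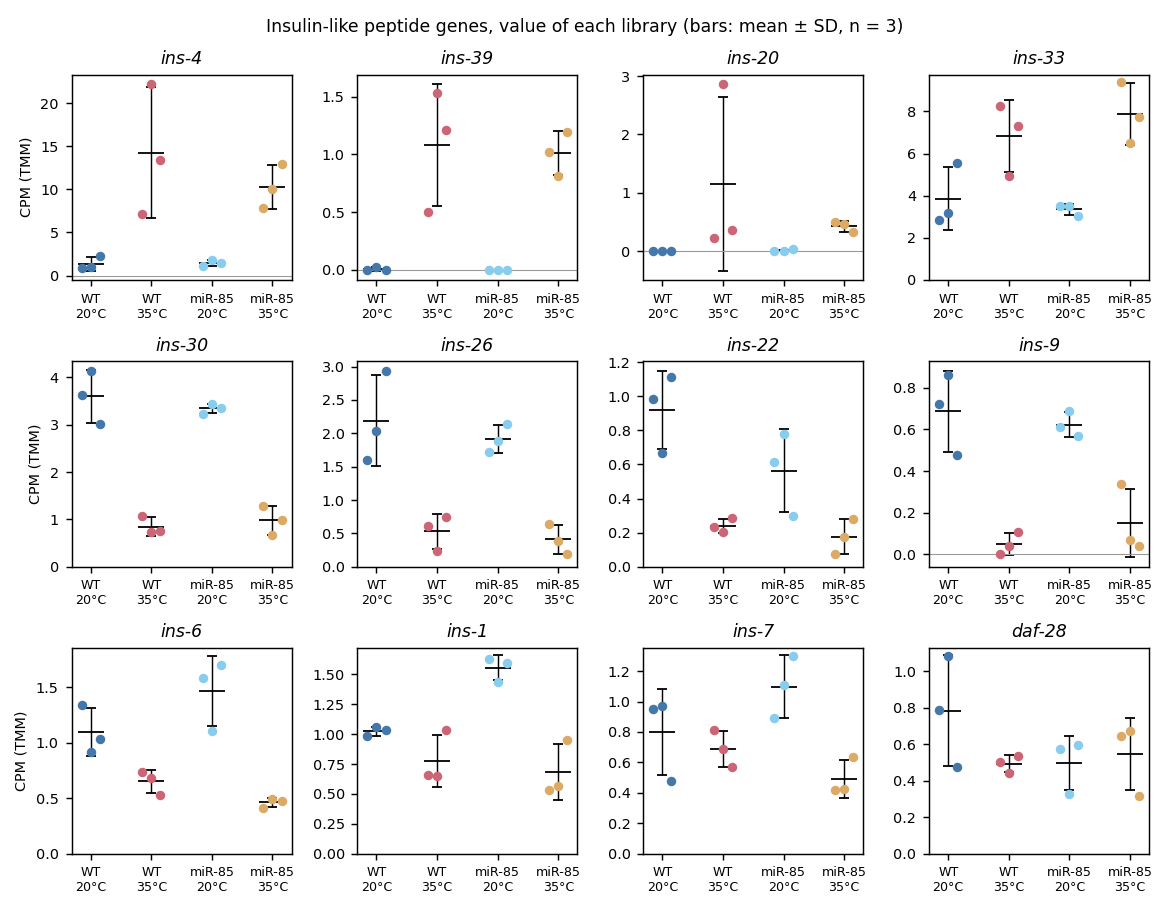
Each panel gives the CPM of a member in the 12 libraries by group, on a linear axis, with the mean ± SD of 3 replicates. The HS libraries of ins-4, ins-39 and ins-20 lie above all libraries at 20°C, those of ins-30, ins-26 and ins-9 lie below them in both strains, and the groups of daf-28 overlap.

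The members that fell in both strains included a pair of neighbours, ins-30 and ins-26, which end the chromosome I group. They are 1093 bp apart on the same strand. In WT, ins-30 stood at 3.64, 4.15 and 3.02 CPM at 20°C and at 1.08, 0.727 and 0.746 CPM at 35°C. In the mutant it stood at 3.24, 3.44 and 3.36 CPM at 20°C and at 1.28, 0.675 and 0.995 CPM at 35°C. No groups overlapped, and the log2 fold changes were -2.08 (SE 0.267, adjusted p 0.000426, edgeR) and -1.76 (SE 0.262, adjusted p 0.00111). For ins-26 the values were 1.61, 2.03 and 2.94 CPM in WT at 20°C and 0.617, 0.242 and 0.746 CPM at 35°C. In the mutant they were 1.71, 1.88 and 2.14 CPM at 20°C and 0.642, 0.391 and 0.199 CPM at 35°C. Its HS libraries were again all lower, with log2 fold changes of -1.99 (SE 0.446, adjusted p 0.00977) and -2.20 (SE 0.451, adjusted p 0.00756). Both calls held without any single library in either strain.

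In the rest of the chromosome I group no member was called. The log2 fold changes of ins-28, ins-27 and ins-24 were -0.10, -0.04 and 0.18 in WT and -0.20, -0.18 and 0.20 in the mutant, and none passed the test. The ins-29 gene had 2.03, 1.98 and 2.86 CPM in WT at 20°C and 1.16, 0.444 and 1.21 CPM at 35°C, with all HS libraries lower, and its groups overlapped in the mutant. Its log2 fold changes were -1.26 (SE 0.443, adjusted p 0.0625, edgeR) and -0.86 (SE 0.438, adjusted p 0.215). The adjusted p in WT was 0.0338 with DESeq2 and 0.0435 with no filter on low counts (edgeR). The fits that left out a WT library gave -1.49 to -0.93, with adjusted p from 0.0739 to 0.17 (edgeR). The ins-25 gene was not tested. Of the abundant ins-27, WT had 8.58, 6.62 and 9.22 CPM at 20°C and 9.45, 4.36 and 9.85 CPM at 35°C, and the mutant 6.31, 8.70 and 8.50 CPM against 8.53, 5.61 and 6.53 CPM. Its lowest values in the series were those of the HS libraries numbered 2.

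**Figure D4:**
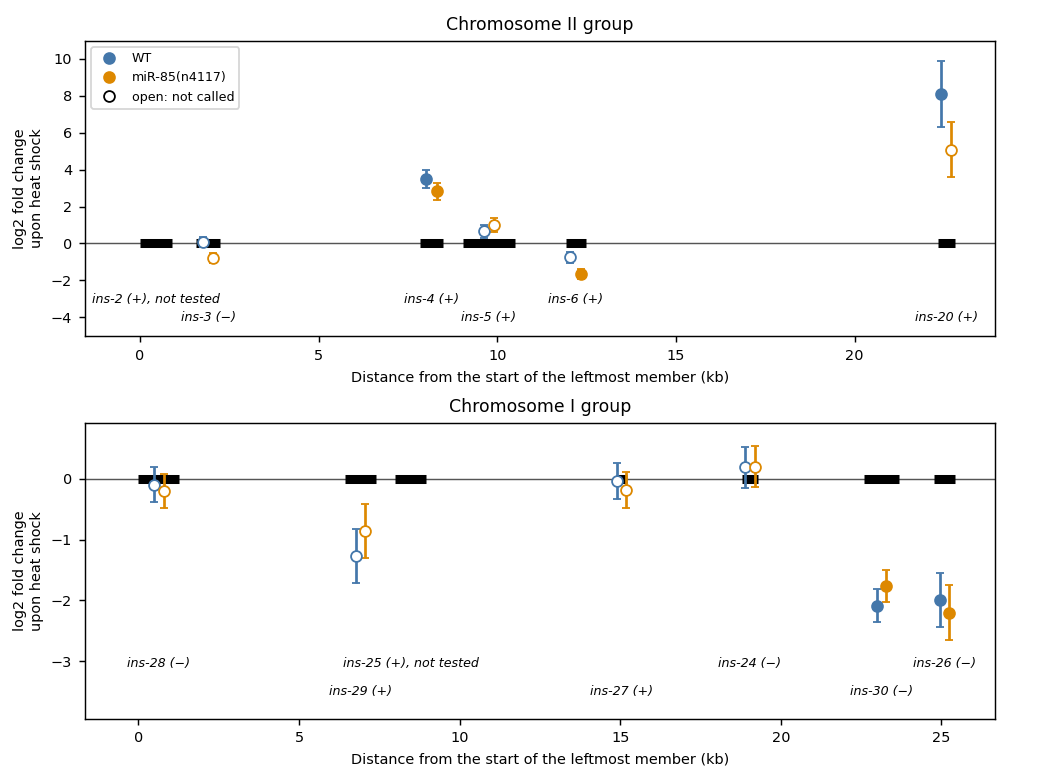
The log2 fold change upon HS (SE bars, filled where called) is plotted against the distance in kb from the start of the leftmost member, for the groups of neighbours on chromosomes II and I. Black bars mark the genes and the points of WT and miR-85(n4117) are shifted apart sideways. In the upper panel ins-4 and ins-20 lie above 0 and ins-6 below, and in the lower panel ins-30 and ins-26 lie near -2, ins-29 at -1.26 and -0.86, and ins-28, ins-27 and ins-24 near 0.

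The other falls were of ins-22 and ins-9, both rare and both in the test only through their counts at 20°C. The ins-22 peptide is widely used as a tagged cargo of dense core vesicles, the organelles from which neurons release peptides. It had 0.983, 0.668 and 1.11 CPM in WT at 20°C and 0.231, 0.202 and 0.284 CPM at 35°C. In the mutant it had 0.614, 0.778 and 0.298 CPM at 20°C and 0.0755, 0.178 and 0.279 CPM at 35°C. The HS libraries were lower in both strains, by a narrow gap in the mutant. The log2 fold changes were -1.89 (SE 0.471, adjusted p 0.0162, edgeR) and -1.65 (SE 0.487, adjusted p 0.0428). The WT call was lost without replicate 1 at 20°C or replicate 2 at 35°C, with values from -2.098 to -1.76 over 6 fits. The mutant call held in 2 of 6 such fits (-2.11 to -1.30), those without replicate 3 at either temperature.

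The ins-9 gene had 0.721, 0.863 and 0.477 CPM in WT at 20°C and 0, 0.0404 and 0.107 CPM at 35°C, the last from 0, 1 and 3 counts. In the mutant it had 0.614, 0.688 and 0.569 CPM at 20°C and 0.340, 0.0710 and 0.0398 CPM at 35°C. The groups did not overlap in either strain. The log2 fold change was -3.70 (SE 0.773, adjusted p 0.00702, edgeR) in WT and -2.02 (SE 0.646, adjusted p 0.0579) in the mutant, where it was not called. Without WT replicate 1 or 2 at 20°C the adjusted p stayed under the limit (0.0217 and 0.0292), but the gene was no longer called because its mean normalized count fell to 8.78 and 7.81.

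Several members varied widely between replicates. The ins-11 peptide is known from the intestine, where infection induces it. It had 0.459, 0.556 and 3.50 CPM in WT at 20°C and 0.771, 0.485 and 1.14 CPM at 35°C, and in the mutant 0.847, 4.61 and 3.93 CPM against 1.77, 0.249 and 4.02 CPM. Its groups overlapped throughout, with log2 fold changes of -0.77 (SE 1.05, adjusted p 0.632) and -0.63 (SE 0.945, adjusted p 0.702). The ins-31 gene, named here after its values had been seen, had 0.0655, 1.20 and 0.318 CPM in WT at 20°C and 0.231, 4.48 and 0.640 CPM at 35°C. In the mutant it had 1.10, 0.120 and 2.11 CPM at 20°C and 1.96, 5.26 and 4.30 CPM at 35°C. Its highest values were those of the HS libraries numbered 2, and its log2 fold change in WT turned from 1.65 to -0.37 without them. The level of ins-35, also named after its values had been seen, was 0.242 and 0.320 CPM in those libraries and 1.12 to 2.42 CPM in the other 10.

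Both HS libraries numbered 2 thus differed from the other 4 HS libraries in several members. Of the 26 tested members, 9 were lower in both than in the other 4 (ins-11, ins-12, ins-24, ins-27, ins-28, ins-29, ins-30, ins-33 and ins-35), and 1, ins-31, was higher. The part of the differences in hypodermal, L4 and adult markers in these values was not tested. Without both libraries, a choice made after seeing the data, 6 members were called in WT, 5 of them among the 7 called with all libraries, where 9.66% of coding genes were called. Then ins-20 was not tested, ins-22 missed the call (log2 fold change -1.78, adjusted p 0.0518, edgeR) and ins-33 was called (1.05, adjusted p 0.0224). In the mutant 6 were called, all among the 9 called with all libraries, where 6.73% of coding genes were called. The calls of ins-1 (-1.07, adjusted p 0.0522), ins-7 (-1.05, adjusted p 0.102) and ins-22 (-1.66, adjusted p 0.101) were lost there, at log2 fold changes near those of -1.18, -1.15 and -1.65 with all libraries.

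The ins-37 gene, among the most abundant members, had 5.63, 6.15 and 7.55 CPM in WT at 20°C and 3.32, 3.88 and 3.80 CPM at 35°C. In the mutant it had 6.75, 5.92 and 6.28 CPM at 20°C and 4.04, 2.77 and 6.01 CPM at 35°C. The groups were apart in WT and overlapped in the mutant. The log2 fold change of -0.81 in WT (SE 0.25, adjusted p 0.0406, edgeR) was under the size needed for a call. Its adjusted p in WT rose to between 0.0611 and 0.104 in the fits that left out a WT library. The log2 fold change in the mutant was -0.57 (SE 0.247, adjusted p 0.148). Its exons share 171 bp with F08G2.9 on the same strand.

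Markers of other cell types and of stage moved with HS as well. Over all coding genes tested, 5.25% in WT and 3.2% in the mutant were called lower. The summed level of 5 intestinal markers was 1329 to 1490 CPM in WT at 20°C and 587 to 638 CPM at 35°C, and 1130 to 1205 CPM against 373 to 764 CPM in the mutant, with 4 of 5 and 3 of 5 called lower. That of 6 neuronal markers was 129 to 146 CPM against 108 to 131 CPM in WT and 148 to 161 CPM against 123 to 149 CPM in the mutant, with 0 of 6 called. Their median log2 fold changes were -0.43 in WT and -0.58 in the mutant, beside -0.20 and -0.57 for the tested members. Of these markers rab-3 passed the adjusted p below the size needed for a call in both strains (-0.77, adjusted p 0.00554 and -0.91, adjusted p 0.00246, edgeR), and ric-4 (-0.85, adjusted p 0.00811) and unc-119 (-0.82, adjusted p 0.0174) did so in the mutant. Of 4 markers of the ASI and ASJ neurons, 2 had enough counts for a test and 0 were called, with summed levels of 2.98 to 6.39 CPM over all libraries. Among the defining ones, str-3 was at or near 0. Summed levels of the 4 adult markers were 811 to 983 CPM in WT at 20°C and 2454 to 8679 CPM at 35°C, those of the 4 L4 stage markers 574 to 1676 CPM against 129 to 477 CPM, and those of the 5 hypodermal markers 2031 to 3347 CPM against 350 to 1482 CPM, without overlap. In the mutant the same sums overlapped, with 85.6 to 1031 CPM against 348 to 5536 CPM for adult, 549 to 1124 CPM against 102 to 731 CPM for L4 stage and 1874 to 2304 CPM against 290 to 1978 CPM for hypodermal markers. Of these, 1 L4 stage marker was called lower in WT. The part of these changes in the members' rises and falls was not tested.

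Between the strains, no member was called at either temperature. This comparison asks whether loss of miR-85 goes with other levels of a transcript. At 20°C, 0 of 23 tested members were called with edgeR, and 0 with DESeq2, where 0.0551% of 14506 coding genes tested were called with edgeR. At an unadjusted p under 0.05 there were 2 members, against 9.49% of coding genes. The log2 fold changes ranged from -0.70 for daf-28 to 1.83 for ins-12. The mutant libraries lay above all WT libraries for 2 members (9.07% of coding genes), ins-12 and ins-1.

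The ins-12 gene had 0.229, 0.223 and 0.238 CPM in WT at 20°C, from 7, 8 and 3 counts, and 1.06, 0.718 and 0.677 CPM in the mutant, from 50, 24 and 25 counts. All 3 mutant libraries stood above all 3 WT libraries. The log2 fold change was 1.83 (SE 0.333, unadjusted p 0.000837, adjusted p 0.238, edgeR), and its adjusted p over the alternatives ran from 0.0591 with DESeq2 to 0.806. It lies on chromosome II from 5554617 to 5555361, 1369 bp before ins-11. For ins-1 the WT values of 0.983, 1.06 and 1.03 CPM lay below the mutant values of 1.44 to 1.63 CPM. Its log2 fold change was 0.60 (SE 0.204, unadjusted p 0.021, adjusted p 0.434). Neither difference passed the correction for multiple tests. With the lane as a covariate the log2 fold changes were 1.83 (adjusted p 0.742) and 0.67 (adjusted p 0.984), a fit in which the mutant libraries, all in lane 3, had a single WT library beside them at 20°C. The summed level of the adult markers at 20°C was 811 to 983 CPM in WT and 85.6 to 1031 CPM in the mutant, and its part in these values was not tested.

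At 35°C, 0 of 23 members were called between the strains with edgeR and 0 with DESeq2, where 0.0205% of 14659 coding genes were called with edgeR. At an unadjusted p under 0.05 there were 0 members, against 2.29% of coding genes. The log2 fold changes ranged from -1.42 for ins-20 to 1.32 for ins-11. The 3 mutant libraries of ins-6 (0.415 to 0.497 CPM) lay below the 3 WT libraries (0.533 to 0.733 CPM), the only tested member whose groups did not overlap at 35°C (3.63% of coding genes were lower without overlap). Its log2 fold change was -0.48 (SE 0.316, adjusted p 0.995). For ins-12 the groups overlapped at 35°C, with 0.231, 0.121 and 0.462 CPM in WT and 0.415, 0.213 and 0.438 CPM in the mutant.

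The response to HS was not shown to differ between the strains for any member. In the test of the interaction, 0 of 26 members and 0% of 15287 coding genes were called with edgeR, and 0 members with DESeq2. At an unadjusted p under 0.05 there were 3 members, against 2.17% of coding genes. These were ins-6 (-0.90, SE 0.393, p 0.0429, edgeR), ins-3 (-0.83, SE 0.371, p 0.0458) and ins-12 (-1.47, SE 0.664, p 0.0489), each with a lower value in the mutant and an adjusted p of 1.00. For the members called in the mutant and not in WT, the interaction was -0.79 (SE 0.413) for ins-1, -0.88 (SE 0.463) for ins-7 and 0.39 (SE 0.39) for ins-33. For those called in WT and not in the mutant, it was 1.68 (SE 1.06) for ins-9 and -3.02 (SE 3.51) for ins-20.

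Of 21 genes of the receptor and its cascade, from daf-2 to daf-16 and all tested, 0 were called upon HS in either strain. Their median log2 fold changes were 0.19 in WT and 0.01 in the mutant. Over all coding genes tested, 5.87% were called higher and 5.25% lower in WT, and 4.23% and 3.2% in the mutant. The medians over coding genes were 0.01 and 0.03. The receptor gene daf-2 had 0.52 (SE 0.269, adjusted p 0.185, edgeR) and 0.66 (SE 0.269, adjusted p 0.125). The transcription factor gene daf-16 had -0.50 (SE 0.149, adjusted p 0.035) and -0.04 (SE 0.149, adjusted p 0.877), and the first was under the size needed for a call.

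Of 12 tested genes for the processing and release of peptides, 1 rose and 1 fell in WT and 0 were called in the mutant, with medians of -0.32 and -0.19. Coding genes were called higher at 5.87% and lower at 5.25% in WT, and at 4.23% and 3.2% in the mutant. The riser was kpc-1, a furin-like convertase that cuts peptide precursors, with 1.39 in WT (SE 0.424, adjusted p 0.0395) and 0.90 in the mutant (adjusted p 0.174). The other was hid-1, needed to form dense core vesicles, with -1.22 in WT (SE 0.178, adjusted p 0.000939) and -0.86 in the mutant (adjusted p 0.00734).

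The lists that follow stand beside 5.87% of coding genes called higher and 5.25% called lower in WT. In the mutant these shares were 4.23% and 3.2%, and the medians over coding genes were 0.01 and 0.03. Among genes that active DAF-16 is known to raise, 2 of 14 tested rose in both strains and 0 fell, with medians of 0.45 in WT and 0.58 in the mutant. These were sod-3, a mitochondrial superoxide dismutase, with 2.87 (adjusted p 0.00978) and 2.02 (adjusted p 0.0478), and hsp-12.6, a small heat shock protein gene, with 7.69 (adjusted p 9.11e-06) and 5.69 (adjusted p 2.23e-05). Among genes that active DAF-16 is known to lower, 1 of 9 tested was called in WT, dod-23 (2.01, adjusted p 0.0371), and 0 in the mutant, with medians of 0.35 and 0.41. Of 14 tested genes of the other signals for dauer entry, daf-14, a Smad protein gene, rose in WT (1.504, adjusted p 0.00087). There daf-11, a guanylyl cyclase gene of chemosensory neurons, fell in the mutant (-1.31, adjusted p 0.0324), and the medians were -0.25 and -0.19. In none of these lists was a gene called between the strains or for the interaction.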

How the data were processed

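Whole L4 animals of 4 groups with 3 independent biological replicates each were sequenced. The authors extracted total RNA with TRIzol, removed ribosomal RNA with RiboZero Gold, prepared stranded TruSeq libraries, sequenced single reads of 75 bases and aligned them with STAR. The deposited values are raw read counts per gene from FeatureCounts, per the file headers version 1.6.5 with Ensembl release 100 and the setting for reversely stranded reads. Names and positions were taken from Ensembl release 115 (WBcel235), which held 46817 of 46904 identifiers. No sequences are shown, since the reference used here held annotation only.

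Members were tested with edgeR 4.0.16 under R 4.3.3 (filterByExpr, TMM, robust quasi-likelihood fit). Both HS responses and their interaction came from a fit of 12 libraries, and the strains were compared in fits of 6. P-values were adjusted over all genes tested. Each SE was obtained from the log2 fold change and the F statistic of its test, as their quotient after taking the root of F. CPM are read counts divided by the TMM-scaled library size, in units of 1000000. A group with 0 counts was set at 3 counts per library. The procedure was tested on simulated data. Members and gene lists were chosen with earlier results of these data known. The rule for naming took members called in any comparison, those with an unadjusted p under 0.05 between strains and the 6 of highest level per length. It also took daf-28, ins-1, ins-6, ins-7 and ins-18. Values of ins-3, ins-5, ins-14, ins-24, ins-28, ins-29, ins-31 and ins-35 are given outside this rule, as are counts of members that were not tested.

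Replicate numbers come from the library titles. Deviations from the group means of same-numbered libraries correlated with r of 0.31, 0.12 and 0.36 between WT at 20°C and 35°C, and of 0.49, 0.56 and 0.34 between the strains at 35°C (16585 genes). These libraries may thus be paired, but the main tests reported here did not use a pairing. It entered only as a replicate block in an alternative fit. An unlike-numbered pair, mutant replicate 1 at 20°C and replicate 2 at 35°C, also reached an r of 0.51. With the replicate block 7 members were called upon HS in WT, the same genes as without it, and 0 between the strains at 35°C. Alternatives were DESeq2 1.42.0, RLE normalization, other filters on low counts, other libraries in the fit, the block, the lane as a covariate and leaving out each library.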

Additional observations from a re-analysis of the deposited data

How the results depend on the processing

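Depth was one limit, since 13 members were not tested and a filter of at least 10 counts in every library left 13 members with enough counts, 2 of them called upon HS in WT and 5 in miR-85(n4117), where 9.04% and 5.24% of coding genes were called. That filter removes genes that are near 0 in a group. Leaving out each library in turn gave 5 to 8 calls in WT (7.09% to 13% of coding genes), 6 to 9 in the mutant (4.72% to 7.65%) and 0 for the strain comparisons and the interaction. DESeq2 called 8 and 10 members upon HS, including all those called with edgeR. Over all coding genes it called 2060 and 1497 upon HS, where edgeR called 1700 and 1136, and 135 between the strains at 20°C, 11 at 35°C and 1 for the interaction, where edgeR called 8, 3 and 0. Same-numbered libraries of the mutant at 20°C and 35°C correlated with r of -0.20, -0.34 and 0.41. Those of the strains at 20°C correlated with r of 0.10, -0.19 and 0.04. A pairing of these libraries was thus neither shown nor excluded. With the replicate block 8 members were called upon HS in the mutant, without ins-22 (adjusted p 0.101), and 0 between the strains at 20°C and for the interaction. The lane as a covariate gave 0 calls at both temperatures. Without ins-27, the mean summed level was 42.3 CPM in WT and 43.8 CPM in the mutant at 20°C, and 49.5 and 48.6 CPM at 35°C. The libraries then ran from 35.7 to 52.0 CPM against 40.0 to 58.0 CPM in WT. In the mutant they ran from 39.5 to 46.2 CPM against 41.7 to 58.1 CPM, so both pairs overlapped.

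Log2 fold changes that did not pass the test turned sign in some fits, and the cause was not tested. In WT, leaving out each library in turn gave -1.24 to 0.65 for ins-11 (0.65 without replicate 3 at 20°C), -0.36 to 0.599 for ins-12 (-0.36 without replicate 3 at 35°C), -0.13 to 0.458 for ins-17, -0.32 to 0.0772 for ins-18 and -0.23 to 0.248 for ins-27, whose value was 0.253 without both HS libraries numbered 2. In the mutant it gave -0.15 to 0.0891 for ins-17 and -0.0968 to 0.386 for daf-28. There ins-17 had 0.0119 with at least 10 counts in every library and 0.0708 without both HS libraries numbered 2, and daf-28 had -0.0592 without both. For members named by the stated rule, 469 comparisons with an alternative were made. Of these, 411 kept direction and side of the threshold, 29 lost the threshold, 10 gained it and 19 turned. The threshold here is the adjusted p alone, so calls lost through the mean normalized count are not among the 29. Fits in which a member was not tested are not among the 469.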
